A study of Mus musculus with 6 samples.

Results

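Glycolysis and the response to low oxygen were followed through 36 genes for glucose uptake, glycolysis, lactate export and the hypoxia-inducible factor (HIF) pathway, out of 54429 gene names in the table of mouse RUNX1-ETO9a leukemia cells. The genes were taken by name, which gave 37 of the 54532 table entries because *Aldoa*, an aldolase, is listed under both ENSMUSG00000030695 and ENSMUSG00000114515. Their transcript levels were compared between leukemia cells with wild-type and knocked-out *Phf6*, which encodes a chromatin-associated protein mutated in myeloid leukemia.

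The leukemias were made by putting a retrovirus with the fusion oncogene RUNX1-ETO9a (RE9a) and GFP into lineage-negative fetal liver cells of male donors taken at embryonic day 14.5, followed by transplantation into recipient mice. WT Phf6,RE9a cells came from donors with a floxed *Phf6* allele and no Cre, and VC Phf6,RE9a cells from donors with the same allele and Vav1-Cre, which is active in blood-forming cells. Floxed *Phf6* and the RE9a-GFP virus were thus shared by both groups. GFP+ cells were sorted from bone marrow, and RNA was sequenced in 3 libraries per group (WT replicates 1, 2 and 3, and VC replicates 11, 12 and 13). Nothing in the labels tells if a group's libraries stem from separate mice or leukemias, so p-values measure only the spread between these libraries. Total counts ran from 15675358 to 16817994 per library. *Phf6* itself was at 67.8, 56.1 and 69.1 CPM (counts scaled to the size of the library) in WT and 22.9, 18.3 and 19.7 CPM in VC cells. All VC libraries were below all WT libraries, so the labels matched the targeted gene, which was read at a reduced level and not at 0.

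Glycolysis splits glucose into pyruvate in the cytosol, and lactate dehydrogenase turns pyruvate into lactate, which monocarboxylate transporters carry out of the cell. HIF is a transcription factor made of an oxygen-regulated alpha subunit and a constant partner. With oxygen present, prolyl hydroxylases mark the alpha subunit for destruction, and when oxygen is short the factor binds short DNA cores and raises genes for glucose uptake, glycolysis, lactate export and blood vessel growth. Leukemia cells in the marrow often use glycolysis strongly, and many of its enzymes exist as isozymes encoded by separate genes.

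HIF binds the cores ACGTG and GCGTG, and these were searched on both strands of promoter windows from RefSeq (GRCm38.p6) that run from 250 bases before to 50 bases after each start. A window was found for 33 of the 36 genes, *Slc2a3*, *Epas1* and *Bnip3l* being the others. The 180 bases that end just before the start are printed for 8 genes, chosen to set genes that fell (*Ldha*, *Pgk1*, *Pdk1*, *Hif1a* and *Vegfa*) beside a gene that did not pass the test (*P4ha1*) and genes that rose (*Pdk2* and *Hk3*). Capitals mark a core on either strand, and CACGTG, which holds ACGTG on both strands and is also an E-box, counts once.
Ldha (chr7:46845624-46845803, plus strand): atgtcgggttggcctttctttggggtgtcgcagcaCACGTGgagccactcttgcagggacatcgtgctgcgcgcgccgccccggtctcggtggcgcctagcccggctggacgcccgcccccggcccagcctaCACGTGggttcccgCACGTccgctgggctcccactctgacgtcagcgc
Pgk1 (chrX:106186920-106187099, plus strand): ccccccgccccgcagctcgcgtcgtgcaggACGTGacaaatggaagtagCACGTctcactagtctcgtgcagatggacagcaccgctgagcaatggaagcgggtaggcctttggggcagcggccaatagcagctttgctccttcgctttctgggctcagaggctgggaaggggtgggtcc
Pdk1 (chr2:71873044-71873223, plus strand): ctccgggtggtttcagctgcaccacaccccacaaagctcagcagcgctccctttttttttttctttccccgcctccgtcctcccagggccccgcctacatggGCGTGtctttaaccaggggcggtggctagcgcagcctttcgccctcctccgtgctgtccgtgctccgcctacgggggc
Hif1a (chr12:73907687-73907866, plus strand): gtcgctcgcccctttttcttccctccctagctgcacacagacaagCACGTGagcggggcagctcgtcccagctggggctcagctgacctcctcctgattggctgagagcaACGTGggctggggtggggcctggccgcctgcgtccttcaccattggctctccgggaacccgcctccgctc
Vegfa (chr17:46032378-46032557, minus strand): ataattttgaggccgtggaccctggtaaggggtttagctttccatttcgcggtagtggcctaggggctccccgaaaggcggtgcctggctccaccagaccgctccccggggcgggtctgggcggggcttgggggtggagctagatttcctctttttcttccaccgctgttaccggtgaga
P4ha1 (chr10:59323116-59323295, plus strand): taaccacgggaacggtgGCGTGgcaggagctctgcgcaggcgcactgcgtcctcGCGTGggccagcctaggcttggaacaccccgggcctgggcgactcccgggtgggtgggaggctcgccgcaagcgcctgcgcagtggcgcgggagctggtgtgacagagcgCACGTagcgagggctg
Pdk2 (chr11:95041372-95041551, minus strand): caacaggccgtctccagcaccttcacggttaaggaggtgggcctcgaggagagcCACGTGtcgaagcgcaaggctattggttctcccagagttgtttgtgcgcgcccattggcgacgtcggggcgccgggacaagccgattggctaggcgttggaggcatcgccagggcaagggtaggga
Hk3 (chr13:55021386-55021565, minus strand): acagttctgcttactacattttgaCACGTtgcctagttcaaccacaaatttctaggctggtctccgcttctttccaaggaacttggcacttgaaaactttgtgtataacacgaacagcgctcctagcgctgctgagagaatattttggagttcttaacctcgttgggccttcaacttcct

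The printed stretches held 3 cores in *Ldha*, 2 in *Pgk1*, 1 in *Pdk1* and 2 in *Hif1a*, and no core was read in that of *Vegfa*. *P4ha1* held 3 cores, *Pdk2* held 1 and *Hk3* held 1. *Ldha*, *Pdk1*, *Pdk2* and *Vegfa* each have a second start, whose window is not printed. There the same stretch held 1 core in *Ldha* and 0 in *Pdk1*, *Pdk2* and *Vegfa*. The whole second window of *Vegfa* held 2, so these counts depend on the start that is read. Over whole windows, at least 1 core was present for 19 of the 21 genes with a window that fell, for all 5 that rose and for all 5 that were tested and not called. The same held for 66.7% of all tested genes with a window and for 46.7% of all genes in the promoter table. Of single windows, 38 of 48 (79.2%) had a core, against 7530 of 12350 (61.0%) for tested genes. The presence of a core thus did not separate the genes that fell from those that rose. A match is a match of letters, and the absence of one says nothing about the factor.

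Most of the genes were lower in VC cells. Of the 37 entries, 34 passed the filter on low counts and were tested, and 23 of these fell, 5 rose and 6 did not pass an adjusted p of 0.05 (quasi-likelihood test in edgeR, adjusted by Benjamini-Hochberg over 14169 genes). Across all genes tested, 22.7% fell and 21.5% rose. A fall of at least 2-fold was called for 16 entries, against 11.5% of all genes, and a rise of at least 2-fold for 1, *Hk3*, against 9.95% of all genes. Every VC library lay below every WT library for 24 of the 34 entries, where 28.4% of all genes did so, and above for 5, where 28.9% did so. The median log2 fold change of the 34 entries was -0.97, and that of all genes tested was 0.013. The falls were spread from the glucose transporter *Slc2a3* at the start of the pathway to lactate export at its end. The 5 genes that rose were *Slc2a1*, the other glucose transporter, *Hk3*, *Pfkm*, *Gapdh* and *Pdk2*.

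**Figure D1:**
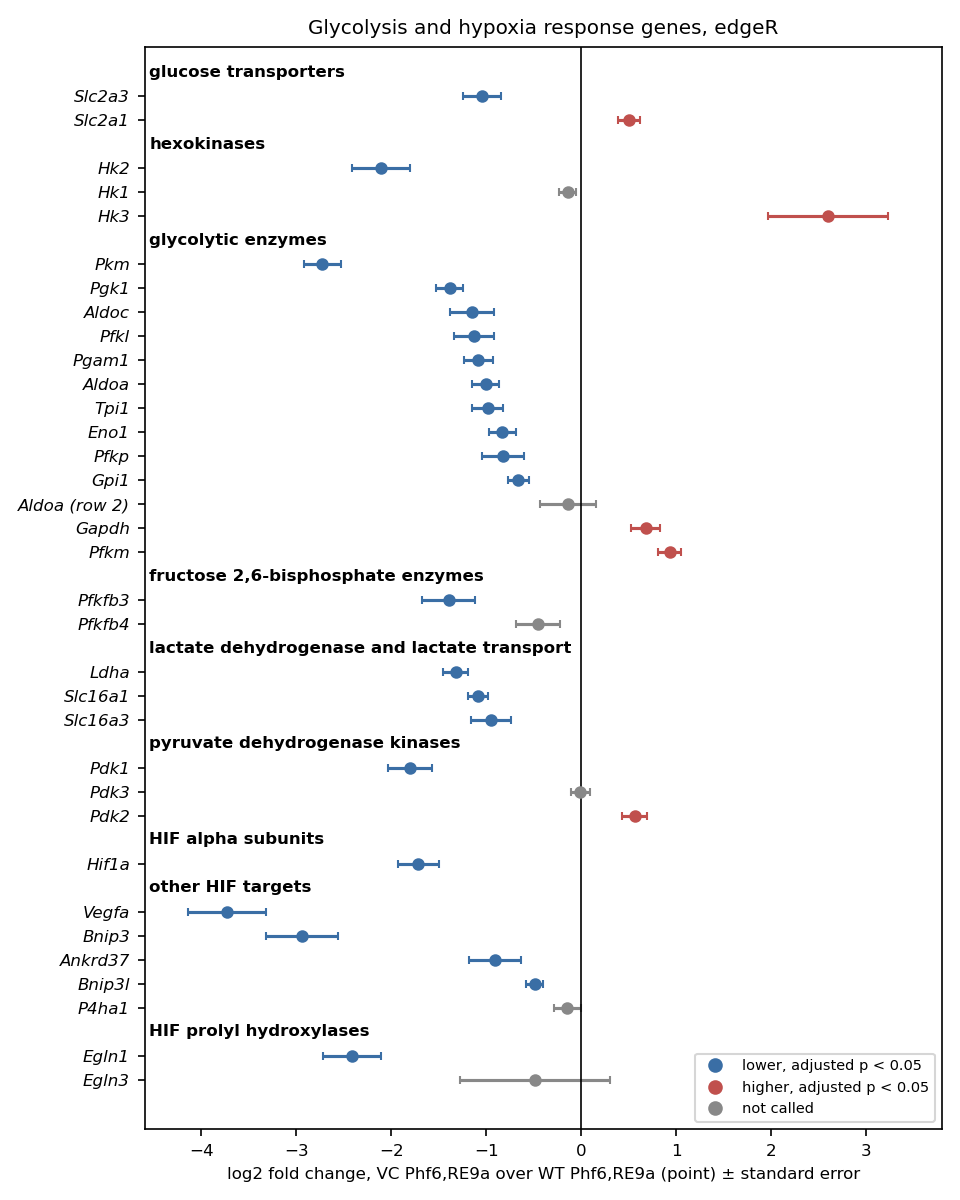
Log2 fold change of VC over WT Phf6,RE9a cells for the 34 tested entries, in blocks by role, with bars for 1 standard error; negative values are lower in VC cells and colours give the edgeR call at an adjusted p of 0.05. The points run from -3.73 for *Vegfa* to 2.60 for *Hk3*, with 23 called lower and 5 called higher.

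Markers of other blood cells also differed between the groups. The 12 mast cell and basophil markers summed to between 22578 and 36237 CPM in WT and between 7108 and 7814 CPM in VC libraries, and 11 of 12 fell, led by *Hdc* (5973 ± 1853 against 2563 ± 104 CPM, SD, n = 3) and *Cpa3* (6749 ± 1508 against 274 ± 116 CPM). The 12 erythroid markers all rose, from 2044 to 2854 CPM in WT to between 6826 and 7761 CPM in VC libraries, and the 15 neutrophil and granule markers all rose, from 200.3 to 622 CPM to between 1185 and 4239 CPM. Among erythroid markers *Hba-a1* was at 316 ± 99.5 CPM against 1620 ± 116 CPM and *Hbb-bs* at 1257 ± 287 CPM against 2370 ± 174 CPM, and among granule markers *S100a9* was at 63.4 ± 40.7 CPM against 584 ± 351 CPM and *Ngp* at 66.9 ± 46.2 CPM against 501 ± 282 CPM. No marker of these 3 lists was at 0 in all libraries. Of the 5 genes listed for the leukemia cells, 2 fell and 3 did not pass. *Kit*, which is also 1 of the 12 mast cell and basophil markers, fell (2420 ± 471 against 273 ± 70.1 CPM), as did *Cd33* (log2 fold change -2.70). *Runx1* was at 875 ± 65.3 against 726 ± 11.3 CPM (edgeR adjusted p = 0.0547). Megakaryocyte markers, led by *Itga2b*, summed to 247 to 363 CPM in WT and 38.0 to 44.6 CPM in VC libraries. Of the 4 tested, 2 fell, 1 rose and 1 did not pass, so the list did not move as 1. Monocyte markers summed to 97.9 to 124 CPM in WT and 117 to 210 CPM in VC libraries. Of the 11 tested, 3 rose, 1 fell and 7 did not pass. Its leading markers parted, with *Ccr2* lower (log2 fold change -0.45) and *Ly6c2* higher (2.28). B cell markers stayed at or under 29.1 CPM, T cell markers at or under 15.4 CPM and stroma and endothelium markers at or under 9.03 CPM in every library. The stem and progenitor list was set by *Cd34*, at 383 ± 339 CPM in WT and 15.5 ± 14.0 CPM in VC libraries. Of the 8 proliferation markers 5 rose, with *Mki67* at 867 ± 153 CPM in WT and 1284 ± 80.8 CPM in VC cells. In bulk RNA, fewer cells of a type and less RNA per cell cannot be told apart. The part of these cell types in the glycolysis values was not tested. Ratios to summed markers are given below as description for *Hk3*, *Slc2a1*, *Pfkm* and *Pdk2*, which all rose. None was computed for genes that fell.

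Glucose enters through facilitative transporters, of which *Slc2a3* (GLUT3, high affinity) had the higher level per length in WT cells. *Slc2a3* was at 1208, 997 and 782 CPM in WT and at 601, 396 and 450 CPM in VC libraries. All VC libraries were below all WT libraries, a 2.07-fold fall (log2 fold change -1.05, standard error 0.20, edgeR adjusted p = 0.00490). *Slc2a1* (GLUT1, the basal transporter of many cells) moved the other way, from 217, 235 and 180 CPM to 302, 318 and 276 CPM. Its groups did not overlap either (log2 fold change 0.50, standard error 0.12, adjusted p = 0.0106). *Slc2a1* therefore made up 30.7% ± 3.2 of the level per length (FPKM, fragments scaled by gene length and depth) summed over both transporters in WT and 56.4% ± 5.8 in VC cells (SD, n = 3). Per 1000 CPM of the summed erythroid markers, *Slc2a1* was at 63.0 to 115 CPM in WT and at 40.4 to 42.7 CPM in VC libraries. This ratio could only fall, because the marker sum rose by more than *Slc2a1*. It is no test of the part of erythroid cells.

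Hexokinases trap glucose in the cell by phosphorylation, and their 3 members went 3 ways. *Hk2*, the inducible mitochondria-bound form, was at 166, 176 and 72.9 CPM in WT and at 29.0, 32.4 and 34.7 CPM in VC libraries, 4.32-fold lower (log2 fold change -2.11, standard error 0.31, adjusted p = 0.00136). WT replicate 3 was the lowest WT library and still above every VC library. *Hk1*, the housekeeping form, had the highest FPKM of the 3 and was at 712, 691 and 748 CPM in WT and at 606, 669 and 671 CPM in VC libraries (log2 fold change -0.14, standard error 0.09, adjusted p = 0.246). Its groups did not overlap but the difference missed the threshold.

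*Hk3*, the hexokinase of myeloid cells, rose 6.07-fold, from 2.66, 1.56 and 8.11 CPM to 35.9, 28.5 and 11.2 CPM (log2 fold change 2.60, standard error 0.63, adjusted p = 0.0127). The libraries of each group stood in the same order for *Hk3* as for the summed neutrophil and granule markers, with WT replicate 3 highest in WT and VC replicate 11 highest in VC cells. Per 1000 CPM of those markers, *Hk3* was at 10.7, 7.79 and 13.04 CPM in WT and at 8.47, 10.3 and 9.43 CPM in VC libraries. On that scale the groups overlapped, with means of 10.5 ± 2.6 and 9.41 ± 0.93 (SD, n = 3). The order and the ratio are description from 3 libraries per group, and the part of neutrophils in the rise of *Hk3* was not tested. *Hk3* made up 7.77% ± 4.0 of summed hexokinase FPKM in VC cells against 1.06% ± 0.96 in WT cells, while *Hk2* went from 21.2% ± 8.0 to 6.08% ± 0.50.

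Between glucose 6-phosphate and pyruvate, 13 entries were tested, of which 10 fell and 2 rose. *Pkm*, which encodes the pyruvate kinases M1 and M2 that make pyruvate and ATP at the end of the pathway, fell the most. *Pkm* (ENSMUSG00000032294, chr9:59656368-59679375, GRCm38) was at 1424, 1446 and 976 CPM in WT and at 223, 161 and 196 CPM in VC libraries. The fall was 6.61-fold (log2 fold change -2.73, standard error 0.20, adjusted p = 6.9e-05), and the lowest WT library was several times the highest VC library.

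*Pgk1*, phosphoglycerate kinase, the first ATP-making enzyme, was at 589, 644 and 551 CPM in WT and at 237, 184 and 261 CPM in VC libraries (log2 fold change -1.39, standard error 0.14, adjusted p = 0.000283). *Pgam1*, phosphoglycerate mutase, was at 221, 242 and 204 CPM against 104, 83.2 and 127 CPM (log2 fold change -1.08, adjusted p = 0.00118). In both, VC replicate 12 was the lowest and VC replicate 13 the highest VC library, and the groups did not overlap. *Aldoa*, the main aldolase, was at 1356, 1340 and 1096 CPM against 626, 535 and 724 CPM (log2 fold change -1.01, standard error 0.15, adjusted p = 0.00128), and its second entry, ENSMUSG00000114515, was at 1.81 to 3.01 CPM in all libraries (log2 fold change -0.14, adjusted p = 0.729). *Aldoc*, the minor aldolase, was at 73.0, 68.7 and 54.2 CPM against 27.6, 20.9 and 39.8 CPM (log2 fold change -1.15, adjusted p = 0.00552). The order of the VC libraries was again 12, 11 and 13 from low to high. Falls of less than 2-fold were called for *Tpi1*, triosephosphate isomerase (log2 fold change -0.99), *Eno1*, the main enolase (-0.83), *Pfkp*, platelet-type phosphofructokinase (-0.83), and *Gpi1*, glucose 6-phosphate isomerase (-0.66). *Eno2*, the neuronal enolase, was removed by the count filter, with 12, 4 and 4 counts in WT and 0 in each VC library, at least 2.42-fold lower when VC libraries are set to a floor of 3 counts each, which covers counting error only.

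Read per length, phosphofructokinase, the committed step, changed in its makeup more than in its sum. The liver-type subunit *Pfkl* was at 212, 234 and 172 CPM in WT and at 81.8, 74.9 and 126 CPM in VC libraries (log2 fold change -1.13, standard error 0.21, adjusted p = 0.00403). The muscle-type subunit *Pfkm* went from 93.5, 80.1 and 87.2 CPM to 160, 193 and 145 CPM (log2 fold change 0.93, standard error 0.12, adjusted p = 0.000791). Neither gene overlapped between groups, in opposite directions. *Pfkm* held 25.3% ± 4.1 of phosphofructokinase FPKM in WT and 55.0% ± 9.1 in VC cells, while *Pfkl* went from 29.6% ± 2.5 to 15.5% ± 4.3 and *Pfkp* from 45.1% ± 4.2 to 29.5% ± 6.2. The sum over all 3 was 104 ± 15.7 FPKM in WT and 89.5 ± 1.2 FPKM in VC cells (SD, n = 3). The groups overlapped (exact two-sided permutation p = 0.4). This sum depends on the listed gene lengths, 13401 bases for *Pfkp* and 3340 for *Pfkm*, so that *Pfkp* counts for less in it. *Pfkp* was at 767, 670 and 476 CPM in WT and at 410, 267 and 401 CPM in VC libraries. The overlap is stated for FPKM only. *Pfkm* shares 18 exon bases with the antisense gene *Senp1*, which also rose (log2 fold change 0.54, adjusted p = 0.00418), and whether counting used strand is not given in the sources used here. Per 1000 CPM of the summed erythroid markers, *Pfkm* was at 30.6 to 39.2 CPM in WT and at 21.3 to 24.8 CPM in VC libraries. Here too the marker sum rose by more than the gene, so the ratio had to fall and tests nothing.

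*Gapdh*, glyceraldehyde 3-phosphate dehydrogenase, went against the enzymes before and after it, from 70.4, 55.6 and 62.8 CPM in WT to 107, 115 and 79.7 CPM in VC libraries (log2 fold change 0.68, standard error 0.15, adjusted p = 0.00924). Its level was also low, at 15.1 ± 1.8 FPKM in WT cells where *Tpi1* just before it was at 255 ± 20 FPKM and *Pgk1* just after it at 263 ± 21 FPKM. Of the 50-base stretches of its coding transcripts, 58.4% also occurred in transcripts of other genes, 226 in number and 214 of them pseudogenes. Those pseudogenes held 984, 1362 and 898 counts in WT and 960, 860 and 1061 counts in VC libraries, beside 1084, 819, 1038, 1820, 1981 and 1341 for *Gapdh*. How the counting placed reads that fit several genes was not stated, so the *Gapdh* values are uncertain and the cause of its direction was not tested.

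Among the enzymes that set fructose 2,6-bisphosphate, the activator of phosphofructokinase, *Pfkfb3* fell and held most of the FPKM. It was at 225, 426 and 201 CPM in WT and at 128, 97.7 and 97.1 CPM in VC libraries (log2 fold change -1.40, standard error 0.28, adjusted p = 0.00575). WT replicate 2 was 2.0 times the mean of the other two WT libraries, and without it the log2 fold change was -0.99, still called. *Pfkfb4*, the minor form, was at 15.8, 17.8 and 12.9 CPM against 14.5, 11.1 and 8.38 CPM (adjusted p = 0.150).

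At the lactate end of the pathway all 3 tested genes fell. *Ldha*, the muscle-type lactate dehydrogenase that favours lactate formation, had the highest FPKM of all 36 genes. *Ldha* (ENSMUSG00000063229, chr7:46841475-46855627, GRCm38) was at 1813, 1983 and 1609 CPM in WT and at 716, 634 and 809 CPM in VC libraries, 2.5-fold lower (log2 fold change -1.32, standard error 0.13, adjusted p = 0.000264). *Ldhb*, the heart-type form, was removed by the count filter, with 1, 2 and 4 counts in WT and 9, 7 and 5 in VC libraries, and *Ldha* was 99.98% of lactate dehydrogenase FPKM in WT and 99.88% in VC cells. The proton-linked lactate transporter *Slc16a1* (MCT1) was at 139, 121 and 127 CPM against 68.0, 54.4 and 59.9 CPM (log2 fold change -1.09, standard error 0.11, adjusted p = 0.000228). *Slc16a3* (MCT4, the export form of glycolytic cells) was at 182, 249 and 161 CPM against 99.0, 79.2 and 127 CPM (log2 fold change -0.95, adjusted p = 0.00844). For *Ldha* and both transporters every VC library was below every WT library.

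**Figure D2:**
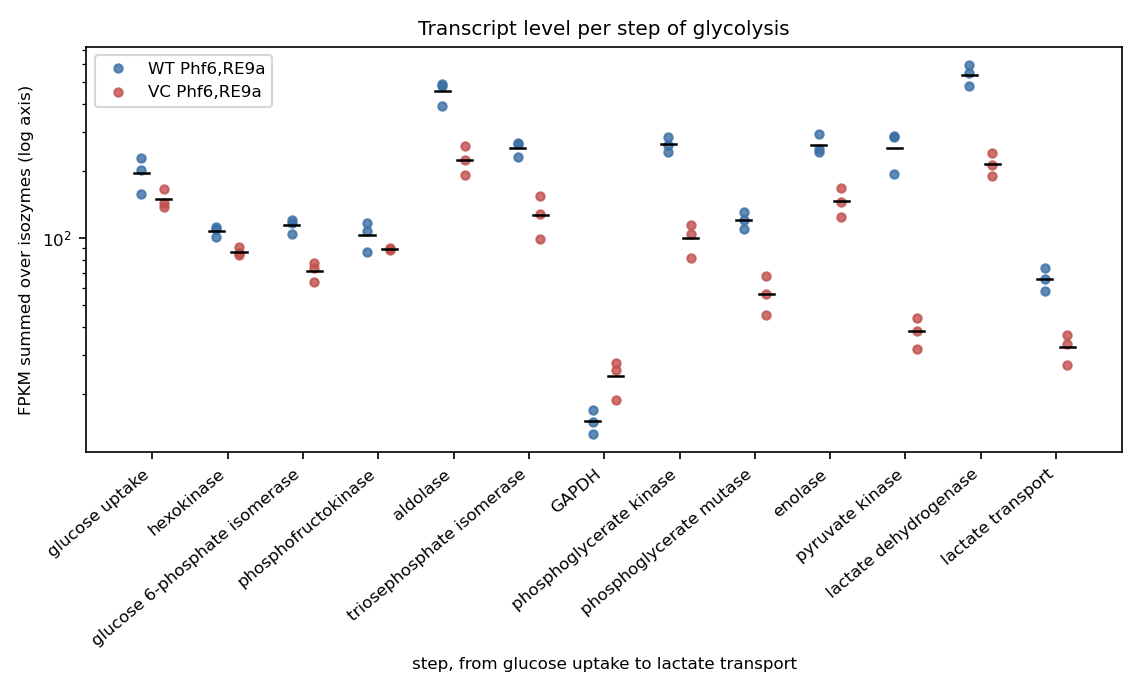
FPKM summed over the isozymes of each step (log axis) for each WT and VC Phf6,RE9a library (points, n = 3 per group) with the group mean (black line). Groups are separate at all steps but glucose uptake and phosphofructokinase, the gap is widest at pyruvate kinase (255 against 38.2 FPKM), and GAPDH alone is higher in VC cells.

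Summed over isozymes and read per length, 10 of the 13 steps from uptake to lactate transport were lower in every VC library than in every WT library. Of all single genes tested, 28.4% were so. Each of the 10 was at the smallest p that 3 against 3 libraries allow (exact two-sided permutation p = 0.1, Benjamini-Hochberg 0.118), so no step could pass 0.05. Pyruvate kinase went from 255 ± 53.5 to 38.2 ± 6.0 FPKM (SD, n = 3), 6.66-fold. Phosphoglycerate kinase was 2.64-fold lower, lactate dehydrogenase 2.52-fold, phosphoglycerate mutase 2.14-fold, lactate transport 2.03-fold and aldolase 2.02-fold. The steps before the splitting of the sugar differed less in FPKM. Hexokinase was 1.24-fold and glucose 6-phosphate isomerase 1.59-fold lower. Glucose uptake was 1.31-fold lower with overlapping groups (exact two-sided permutation p = 0.2). Sums over isozymes depend on the listed gene lengths, such as 7245 bases for *Slc2a3* and 3506 for *Slc2a1*. The overlaps at glucose uptake and phosphofructokinase are therefore stated for FPKM only. As a share of all counts, the glycolytic enzymes from glucose 6-phosphate to pyruvate took 0.689% ± 0.059 in WT and 0.371% ± 0.049 in VC libraries.

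**Figure D3:**
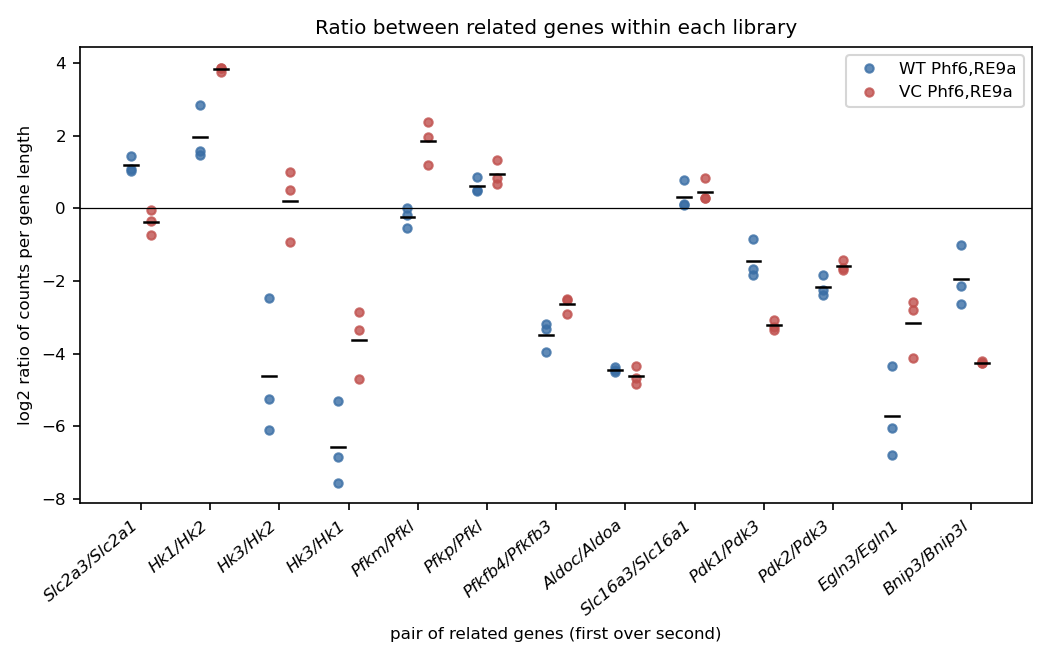
Log2 ratio of counts per gene length between related genes in each WT and VC Phf6,RE9a library (points, n = 3 per group, black line the mean). Groups are separate for 10 of 13 pairs and overlap for *Pfkp*/*Pfkl*, *Aldoc*/*Aldoa* and *Slc16a3*/*Slc16a1*.

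Ratios between related genes within a library do not depend on the scaling between libraries. Of 16 pairs listed, both genes were tested in 13, and in 10 of these the groups did not overlap (exact two-sided permutation p = 0.1 each, the smallest possible, Benjamini-Hochberg 0.13). Among all single genes tested, 28.4% lay below and 28.9% above in every VC library. No such share was computed for ratios, so the 10 pairs are given as description. Shifts were large in *Hk3* over *Hk2*, from a mean log2 ratio of -4.6 ± 1.90 in WT to 0.19 ± 1.01 in VC cells, and in *Egln3* over *Egln1*, from -5.72 ± 1.26 to -3.16 ± 0.84 (SD, n = 3). *Pfkm* over *Pfkl* went from -0.24 ± 0.29 to 1.84 ± 0.59 and *Slc2a3* over *Slc2a1* from 1.18 ± 0.22 to -0.38 ± 0.34. The ratios overlapped for *Aldoc* over *Aldoa*, *Slc16a3* over *Slc16a1* and *Pfkp* over *Pfkl*, pairs in which both genes fell, and did not for *Bnip3* over *Bnip3l*, in which both also fell.

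Pyruvate dehydrogenase kinases hold pyruvate back from the mitochondrial TCA cycle, and here too the isozymes parted. *Pdk1*, the HIF-responsive form, was at 83.2, 135 and 79.0 CPM in WT and at 24.9, 25.7 and 34.8 CPM in VC libraries, 3.48-fold lower (log2 fold change -1.80, standard error 0.23, adjusted p = 0.000781). *Pdk2* rose from 20.6, 27.5 and 24.5 CPM to 33.1, 37.3 and 36.7 CPM (log2 fold change 0.56, standard error 0.13, adjusted p = 0.0110). Per 1000 CPM of the summed erythroid markers, *Pdk2* was at 7.22 to 13.5 CPM in WT and at 4.68 to 5.38 CPM in VC libraries. That fall follows from the marker sum rising by more than *Pdk2* and is no test. *Pdk3*, which had the highest FPKM of the 3, was at 87.9, 79.8 and 93.7 CPM in WT and at 82.9, 81.2 and 96.0 CPM in VC libraries, with overlapping groups (log2 fold change -0.0078, standard error 0.10, adjusted p = 0.960). *Pdk1* fell from 23.3% ± 6.2 to 7.46% ± 0.77 of kinase FPKM.

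The transcript for the oxygen-regulated subunit *Hif1a* (ENSMUSG00000021109, chr12:73901375-73947530, GRCm38) was itself lower, at 216, 361 and 202 CPM in WT and at 75.3, 86.3 and 75.6 CPM in VC libraries. The fall was 3.28-fold (log2 fold change -1.72, standard error 0.22, adjusted p = 0.000726), with WT replicate 2 well above the rest and no overlap. The other alpha subunit, *Epas1* (HIF-2 alpha), had only 0 to 3 counts in each library and was removed by the count filter. HIF is regulated mainly as a protein, which was not measured in these libraries.

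**Figure D4:**
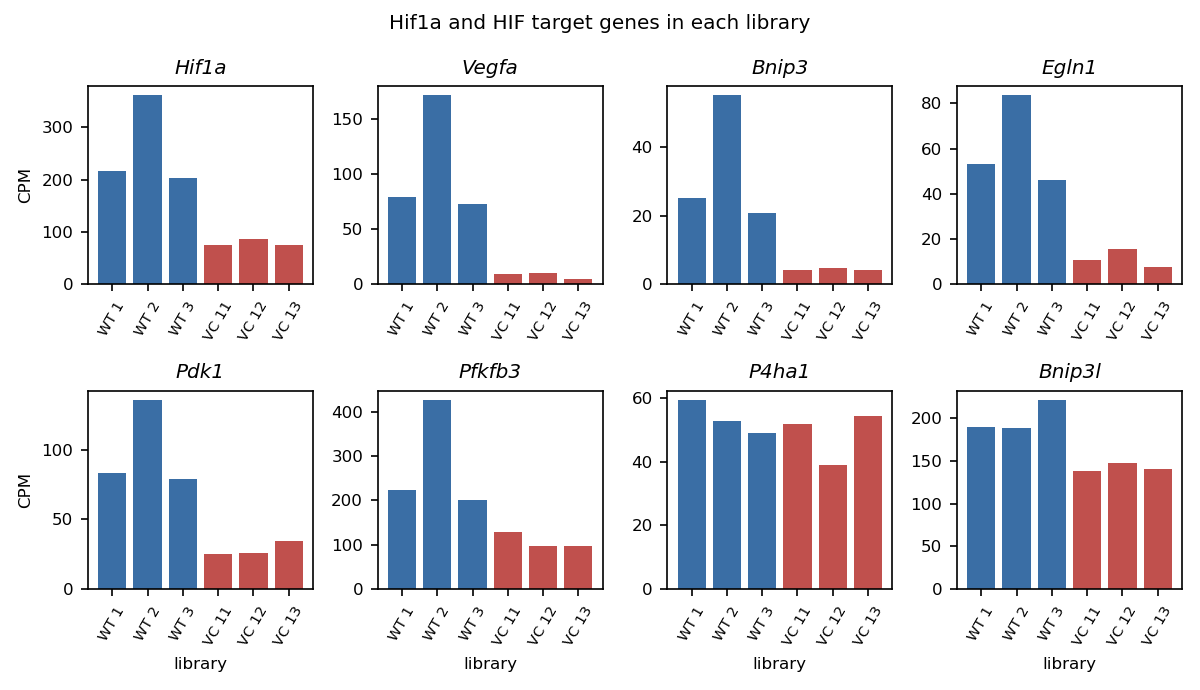
CPM of *Hif1a* and 7 genes of the HIF response in each library, with WT Phf6,RE9a in blue and VC Phf6,RE9a in red. WT replicate 2 is the highest bar for *Hif1a*, *Vegfa*, *Bnip3*, *Egln1*, *Pdk1* and *Pfkfb3*, where all VC bars lie below all WT bars, while *P4ha1* overlaps.

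*Vegfa*, the vascular growth factor, fell the most of all 36 genes. It was at 79.3, 171 and 72.7 CPM in WT and at 8.97, 10.3 and 4.99 CPM in VC libraries, 13.3-fold lower (log2 fold change -3.73, standard error 0.41, adjusted p = 0.000375). *Bnip3*, which directs mitochondria to autophagy, was at 25.1, 55.1 and 20.7 CPM against 4.19, 4.66 and 4.28 CPM (log2 fold change -2.94, standard error 0.38, adjusted p = 0.000760). The VC libraries of *Bnip3* were close together and all far below WT. Its relative *Bnip3l* fell less, from 190, 189 and 221 CPM to 138, 148 and 140 CPM (log2 fold change -0.49, standard error 0.09, adjusted p = 0.00396), so that *Bnip3* over *Bnip3l* also separated the groups. *Ankrd37*, a HIF target of low level, was at 3.27 to 5.02 CPM in WT and 1.86 to 2.36 CPM in VC libraries (log2 fold change -0.91, adjusted p = 0.0296). That call was lost in 5 of the 6 fits that left out a library, with log2 fold changes from -1.05 to -0.74, and 349 of its 1539 exon bases overlap the antisense gene *Lrp2bp*, which had 5 to 12 counts per library. *Ankrd37* also shares 57 exon bases with the antisense gene *Ufsp2*, which had 577 to 944 counts per library beside 32 to 74 for *Ankrd37* and itself fell (log2 fold change -0.53, adjusted p = 0.0142). *P4ha1*, a collagen prolyl hydroxylase, was at 49.1 to 59.3 CPM in WT and 39.1 to 54.4 CPM in VC libraries (adjusted p = 0.430).

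*Egln1* (PHD2), the main oxygen sensor and itself a HIF target, was at 53.2, 83.5 and 45.9 CPM in WT and at 10.7, 15.7 and 7.84 CPM in VC libraries, 5.32-fold lower (log2 fold change -2.41, standard error 0.31, adjusted p = 0.000695). The groups were far apart. *Egln3* (PHD3) was near the limit of detection, at 0.325, 3.05 and 0.484 CPM against 1.12, 0.641 and 0.951 CPM (log2 fold change -0.49, adjusted p = 0.647). Its WT mean rests on WT replicate 2, and without that library the log2 fold change was 1.13 (adjusted p = 0.112).

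**Figure D5:**
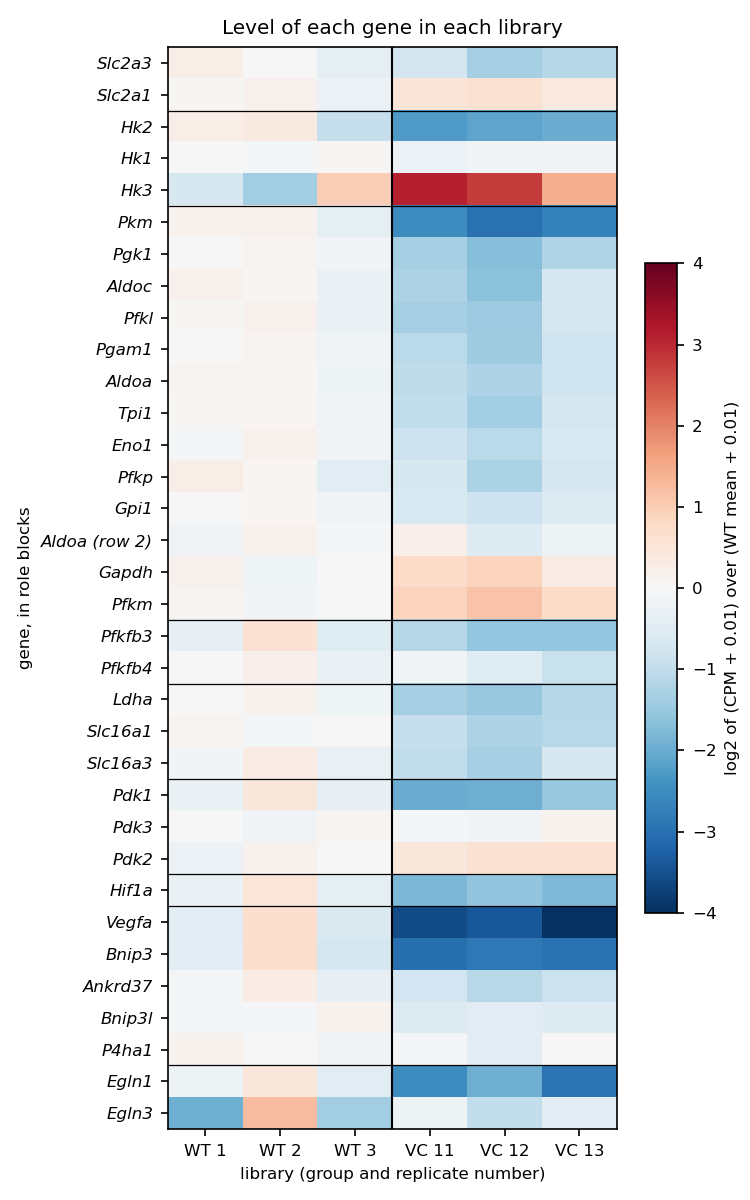
Log2 of CPM over the WT mean, with 0.01 added to both, for the 34 tested entries in each library, blocks separated by role as in the plot of fold changes. Blue fields (below the WT mean) fill most of the 3 VC columns, red fields mark *Hk3*, *Pfkm*, *Gapdh*, *Slc2a1* and *Pdk2* there, and among the WT columns WT 2 is reddest for *Hif1a*, *Vegfa*, *Bnip3*, *Egln1*, *Egln3*, *Pdk1* and *Pfkfb3*, but not for *Bnip3l* or *P4ha1*.

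The 3 WT libraries were not equally high. WT replicate 2 was the highest WT library for 17 of the 23 entries that fell and for 22 of the 34 tested. It was at least 1.5 times the mean of the other two WT libraries for 7 of the 34 (20.6%), against 1667 of 14169 genes (11.8%). Those 7 were *Egln3* (7.55 times), *Bnip3* (2.40), *Vegfa* (2.25), *Pfkfb3* (2.0), *Hif1a* (1.73), *Egln1* (1.68) and *Pdk1* (1.67). Among the 22 tested further HIF targets described below, 3 (13.6%) passed the same ratio. *Cd34*, a marker of immature blood cells, set the stem and progenitor list, which summed to 799 CPM in WT replicate 2 and to 219 and 184 CPM in the others. Without WT replicate 2, the log2 fold change was -3.24 for *Vegfa*, -2.40 for *Bnip3*, -2.13 for *Egln1*, -1.52 for *Pdk1* and -1.41 for *Hif1a*, all still called. Among VC libraries, replicate 12 was the lowest for 15 of the 23 entries that fell.

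The other genes of these pathways, 116 listed from knowledge of the pathways, had a median nearer to 0. Of 93 tested, 26 fell and 20 rose, where 22.7% of all genes fell and 21.5% rose. Their median log2 fold change was -0.05. The 22 further HIF targets that could be tested came nearest to the 34 entries above, with 12 lower, 2 higher and a median of -0.74. The largest falls were in *Car12*, a carbonic anhydrase, at 1.30, 2.99 and 1.15 CPM against 0.059, 0.117 and 0.178 CPM (log2 fold change -3.85, standard error 0.61, adjusted p = 0.00204), a fitted value that rests on 1 to 3 counts in each VC library, and in *P4ha2*, a collagen prolyl hydroxylase (log2 fold change -3.40, adjusted p = 0.00926). *Mif*, a cytokine gene with the highest FPKM of that list, fell from 199 to 45.0 FPKM (log2 fold change -2.14, adjusted p = 0.000107). The 2 that rose, *Epor* (log2 fold change 1.38, adjusted p = 4.4e-05) and *Tfrc* (0.71, adjusted p = 0.00375), the receptors for erythropoietin and transferrin, are also on the erythroid marker list, all of which rose.

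Among 13 tested regulators of HIF, 5 rose and 3 fell, where 21.5% of all genes rose and 22.7% fell. *Rbx1* (log2 fold change 0.72, adjusted p = 0.000996) and *Elob* (0.50, adjusted p = 0.00189), which encode parts of the ubiquitin ligase that removes HIF alpha, had the largest rises. Of that ligase *Vhl*, which binds HIF alpha, did not pass (log2 fold change -0.04, adjusted p = 0.838). *Cited2*, which competes with HIF for its coactivators and had the highest FPKM of the list, fell (log2 fold change -0.52, adjusted p = 0.00785), as did the partner subunit *Arnt* (-0.48, adjusted p = 0.00305).

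Of 24 other isozymes and transporters 6 rose and 6 fell, close to the 21.5% and 22.7% of all genes. *Slc2a6*, a hexose transporter, fell from 44.1, 42.7 and 27.4 CPM to 7.32, 7.63 and 3.68 CPM (log2 fold change -2.61, adjusted p = 0.000492), and *Pgm2*, of the phosphoglucomutase family, fell by 1.58 on the log2 scale. *Slc16a8*, a lactate transporter, and *Gpd1*, glycerol 3-phosphate dehydrogenase, rose by 2.91 and 2.59 on the log2 scale, both from under 1 CPM in WT cells. *Minpp1*, an inositol polyphosphate phosphatase with the highest FPKM of this list, rose slightly (log2 fold change 0.35, adjusted p = 0.0216).

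For the routes that lead glucose carbon elsewhere, the counts of called genes were near or below the all-gene shares of 21.5% higher and 22.7% lower. Of 9 tested genes for entry of pyruvate into mitochondria, 2 rose, the carrier subunit *Mpc1* (log2 fold change 0.77, adjusted p = 0.0124) and the dehydrogenase subunit *Pdhb* (0.29, adjusted p = 0.0416), and the other 7 did not pass. In the TCA cycle 4 of 17 rose and 3 fell, with the succinate dehydrogenase subunits *Sdhb* (log2 fold change 0.67, adjusted p = 0.00452) and *Sdhd*, the highest of the list in FPKM (0.39, adjusted p = 0.0466), among those that rose. *Pcx*, pyruvate carboxylase (-1.72, adjusted p = 0.00036), and *Sucla2*, a succinyl-CoA ligase subunit (-0.53, adjusted p = 0.0130), were among those that fell. In the pentose phosphate pathway 1 of 8 rose, *Taldo1*, transaldolase (log2 fold change 0.45, adjusted p = 0.00662), and 2 fell, *Tkt*, transketolase (-0.58), and *Pgls* (-0.53).

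Some of these genes share sequence with copies elsewhere. Over 10% of the 50-base stretches were shared for 10 of the 36 genes. Shares were 68.0% for *Pgk1*, 49.5% for *Eno1*, 41.5% for *Pgam1*, 24.4% for *Bnip3l*, 23.7% for *Pkm*, 20.7% for *Bnip3* and 10.4% for *Ldha*. Counts of these genes are uncertain, by an amount that the shares do not give. Another 18 genes had none of their stretches in other genes. Of these 9 fell, 3 rose, 5 did not pass and 1 was not tested, where 22.7% of all genes fell and 21.5% rose. Among the 9 were *Hk2*, *Slc16a1*, *Pdk1*, *Egln1* and *Slc2a3*, and also *Pfkp* and *Ankrd37*, whose calls were lost in some fits. *Pfkp*, which lost its call without WT replicate 1 (adjusted p = 0.056) and without VC replicate 12 (adjusted p = 0.052), shares 748 exon bases with the antisense gene *Pitrm1*.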

How the data were processed

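RNA-seq of GFP+ mouse leukemia cells, 3 WT Phf6,RE9a and 3 VC Phf6,RE9a libraries, was taken from 1 deposited table. RNA was extracted with Trizol, and libraries were made with the TruSeq RNA kit from 1 µg of RNA. The authors deposited raw counts of reads for each Ensembl gene. The deposited FPKM values equal the counts divided by the listed gene length and by 1 constant per library, close to a size-factor scaled depth. The deposited fold changes and p-values (DESeq2) were not used. The submitters' processing notes name Bowtie 0.12.0 and mm8, with no role given, while 35 of the 37 entries have the length of their GENCODE M21 (GRCm38) exons. The counter and strand setting are not given in the sources used here.

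In R 4.3.3, edgeR 4.0.16 filtered genes with filterByExpr, scaled counts by TMM and ran the quasi-likelihood test on 14169 genes, with Benjamini-Hochberg adjustment and a threshold of 0.05. CPM are TMM-scaled. Levels of different genes were compared only as FPKM or counts per length. Isozyme ratios (0.5 added to each count) and steps were compared by exact permutation. On simulated data (13923 genes), 54 of 99 genes changed 2-fold (54.5%) and 80 of 97 changed 4-fold (82.5%) were recovered. All had the right sign, and 10 of 13727 unchanged genes were called. Far fewer genes were changed there, in balanced directions, than the 3047 higher and 3213 lower called in the data. These rates therefore do not carry over to the data.

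The 36 genes, the other lists and the tests were chosen with earlier results of these data known. Named were *Phf6* and every one of the 36 genes, with library values for those past 2-fold, the highest FPKM of each role and those not tested. From each other pathway list the rule took the 2 largest called changes of each direction and the highest FPKM, and from each marker list the 2 highest CPM, given here for the lists that moved with the results, and 1 gene that the rule names is not reported here. The 8 printed promoters, the 7 genes high in WT replicate 2, *Vhl* and the named genes without shared stretches were picked after values were seen. Alternatives were RLE, upper quartile or no scaling, no filter, at least 10 counts in every library, DESeq2 1.42.0, limma 3.58.1 on log2(FPKM + 1) or log2(FPKM + 0.1), a threshold of 0.01, each library left out, and for ratios 2 added counts or FPKM.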

Additional observations from a re-analysis of the deposited data

How the results depend on the processing

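Across the alternative scalings, filters, tools and leave-one-out fits at the 0.05 threshold, the number of entries of the 36 genes that fell in VC cells stayed between 21 and 24 and the number that rose was 5, and the median log2 fold change lay between -1.07 and -0.82. At a threshold of 0.01, 21 fell and 2 rose, and 12 of the other pathway genes rose in place of 20. Leaving out each library in turn gave 21 to 23 falls and 10 to 11 separate isozyme ratios. Without scaling beyond the library total, the median of all genes moved from 0.013 to 0.16 and 62.1% of all calls were higher (4048 against 2474) where the TMM fit had 48.7% (3047 against 3213), and the entries then numbered 22 lower and 5 higher. Of 489 single-gene values under an alternative, 469 kept direction and call, 8 lost the call (2 of *Pfkp* and 6 of *Ankrd37*) and 12 changed sign, all in entries never called. These were without scaling *Hk1* (0.0036), *P4ha1* (0.0012), *Pdk3* (0.14) and the second *Aldoa* entry, ENSMUSG00000114515 (0.0054), *Pdk3* with upper quartile scaling (0.030) and at least 10 counts (0.0040), and *Egln3* with limma on log2(FPKM + 0.1) (0.012). Leaving out a library gave -0.35 to 0.023 for the second *Aldoa* entry, -0.089 to 0.040 for *Pdk3* and -0.95 to 1.13 for *Egln3*; the cause was not tested, except that *Egln3* turned with WT replicate 2 left out. No paired analysis was possible because the groups share no replicate numbers. With 3 libraries a group, exact tests cannot go below 0.1, and *Eno2*, *Ldhb* and *Epas1*, removed by the count filter, were tested only in the fit without it.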
